A study of Ovis aries with 6 samples.

Results

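The genes followed here act in MHC class I antigen processing, and their RNA was measured in the skin of sheep of a pair of breeds, the Super Merino (SM) and the Small Tail Han (STH). They were chosen by name for their role in the pathway and are *B2M*, *TAP1*, *TAP2*, *TAPBP*, *PSMB8*, *PSMB9*, *PSMB10*, *NLRC5*, *ERAP1* and *CALR*. All 10 were found among the 28394 genes of the files, and all 10 were among the 15320 that were tested, which had 10 counts or more in 3 sheep or more.

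MHC class I molecules show short peptides from inside the cell to cytotoxic T cells. The proteasome cuts proteins into peptides, the TAP transporter carries the peptides into the endoplasmic reticulum, and a group of chaperones helps load them onto a heavy chain that is bound to beta-2 microglobulin. Nearly all nucleated cells carry this pathway, and interferons are well known to raise the transcription of many of its genes.

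RNA was taken from skin behind the shoulder blade of 3 SM ewes, labelled 128, 30034 and 30126, and of 3 STH ewes, labelled XW3, XW5 and XW8. SM is a fine-wool breed and STH a coarse-wool breed, and the ewes were kept on 1 farm with the same feed. The sample records give an age of 9 months for every sheep, and the study's methods give a younger age, which is also shared by both breeds. The skin was not separated into cell types, so each value is a sum over the epidermis, wool follicles, dermis, vessels and immune cells of the sample.

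Polyadenylated RNA of each sheep gave 1 paired-end library, with total counts of 28870583 to 44645091. Counts of the 10 genes ranged from 251 to 61187 and none was 0, while 3 counts correspond to 0.0672 to 0.104 CPM, the counts scaled to library size, at these depths. Markers of keratinocytes and fibroblasts were present in every sheep, as skin would hold. The summed CPM of 6 keratinocyte markers was 7416 to 8985 in SM and 8994 to 14326 in STH sheep, and that of 6 fibroblast markers was 14610 to 20936 in SM and 16993 to 20971 in STH sheep. These marker sums and the levels below are CPM normalized by the TMM method, unless RPKM, the counts scaled to exon length and library size, is named. A log2 fold change is SM minus STH.

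Of the 10 genes, 5 lie on chromosome 20 (Oar_v4.0). *TAP2* (chr20:7231532-7239887, minus strand), *PSMB8* (chr20:7244351-7247355, minus), *TAP1* (chr20:7248558-7257421, minus) and *PSMB9* (chr20:7258522-7264057, plus) stand next to each other within 32.5 kb. *TAP1* and *PSMB9* point away from each other with 1100 bases between them, and 1202 bases lie between *PSMB8* and *TAP1*. *TAPBP* (chr20:7541530-7551495, minus) lies 277 kb further on and overlaps *ZBTB22* on the same strand by 134 bases, so reads in that stretch could belong to either gene. The other members are *B2M* (chr7:99871348-99893210, plus), *NLRC5* (chr14:24371735-24465464, plus), *PSMB10* (chr14:34666011-34669147, minus), *CALR* (chr5:10648268-10652111, minus) and *ERAP1* (chr5:93415813-93455202, minus).

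Compared per length of exon, the light chain and the general chaperone were far above the rest of the group. Mean RPKM was 767 in SM and 643 in STH sheep for *B2M*, and 250 and 220 for *CALR*. It was 33.5 and 23.4 for *TAPBP*, 21.5 and 12.1 for *PSMB8*, 12.5 and 8.30 for *TAP2*, and 10.8 and 6.89 for *TAP1*. Below these stood *PSMB10* at 9.96 and 6.27, *PSMB9* at 7.70 and 5.60, *ERAP1* at 5.64 and 4.59 and *NLRC5* at 1.05 and 0.888. The order of the breed means was therefore the same in SM and in STH sheep. *B2M* was above *CALR*, *CALR* above *TAPBP* and *ERAP1* above *NLRC5* with no overlap between sheep, whereas all the other neighbours in the order overlapped over the 6 sheep. Read within each sheep, *TAPBP* was above *PSMB8* and *TAP1* above *PSMB10* in all 6. *PSMB8* was above *TAP2*, *PSMB10* above *PSMB9* and *PSMB9* above *ERAP1* in 5 sheep, and *TAP2* was above *TAP1* in 4.

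To ask whether the breeds differed in the pathway, edgeR's quasi-likelihood test was run on the counts of both. All 10 genes were higher in SM sheep by value, where 51.4% of all genes tested were, and their median log2 fold change was 0.44 beside 0.02 over all genes tested. None of the 10 passed an adjusted p of 0.05 together with a difference of more than 1.5-fold, and neither did any of the 15320 genes in either direction (0% called). At an unadjusted p under 0.05, 4 members were higher in SM sheep (*TAP1*, *TAP2*, *TAPBP* and *PSMB10*), and 7.21% of all genes were higher in SM and 10.8% in STH sheep at that level. DESeq2 called 0 members beside 1.02% of genes higher in SM sheep, the likelihood ratio test 0 members beside 0.868%, and limma-voom 0 members and 0 of all genes. By an edgeR algorithm with the same thresholds, the study called genes in both directions from these libraries. The adjusted p of the 10 genes in the quasi-likelihood test ranged from 0.234 to 0.668 (Benjamini-Hochberg over all genes tested). In whole skin, fewer cells of a type and less RNA per cell cannot be told apart for any of these values.

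**Figure D1:**
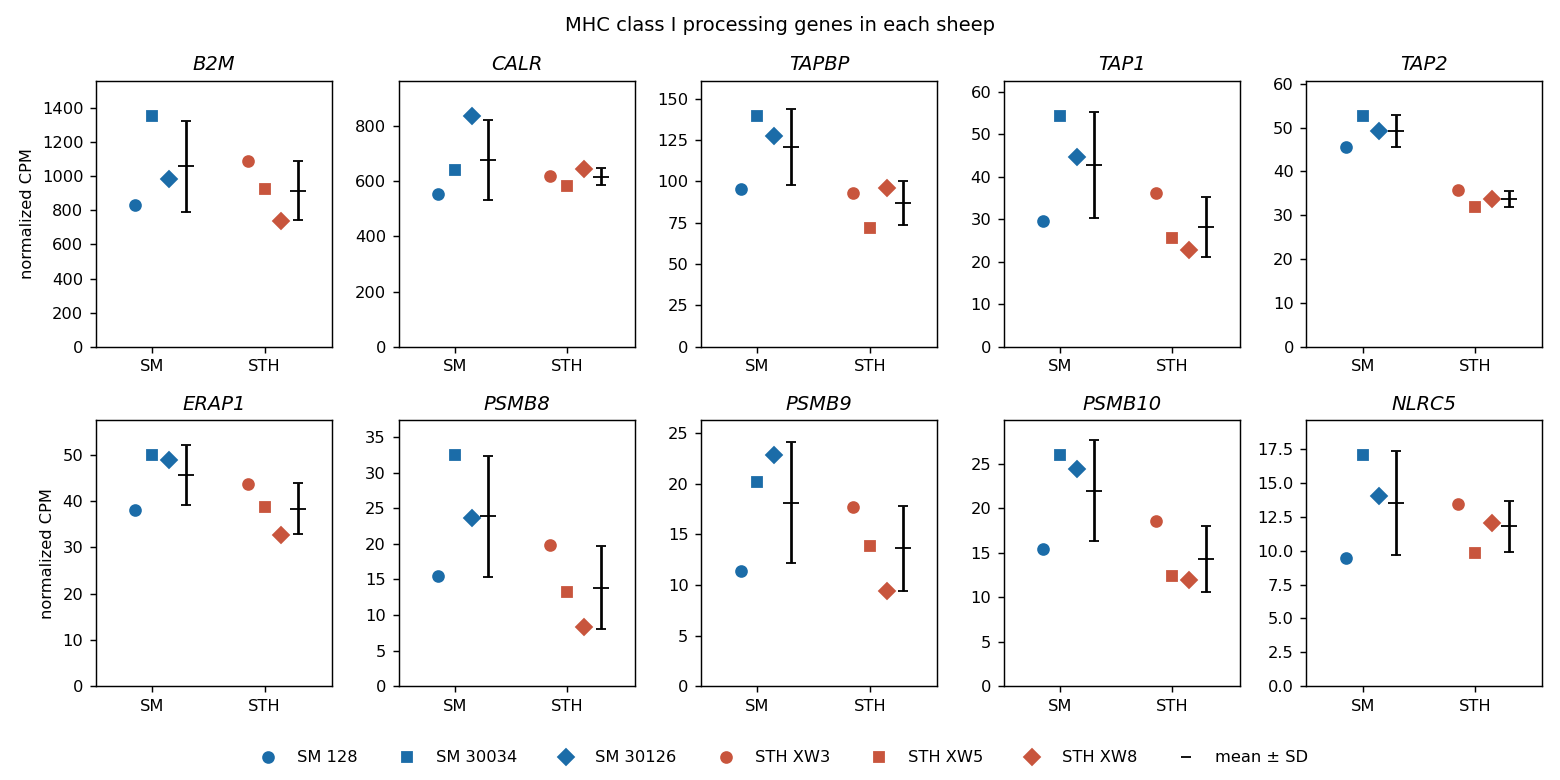
Normalized CPM (vertical axis, from 0) of the 10 genes in each of the 3 SM (blue) and 3 STH (red) sheep, with black marks for the mean ± SD of a breed. *TAP2* is the gene in which every SM sheep, from 45.5 CPM, lies above every STH sheep, up to 35.7 CPM, and the breeds overlap in the other 9 panels.

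*TAP1* and *TAP2* encode the 2 chains of the peptide transporter of the endoplasmic reticulum. *TAP2* was at 45.5, 52.7 and 49.3 CPM in SM sheep 128, 30034 and 30126, and at 35.7, 31.9 and 33.6 CPM in STH sheep XW3, XW5 and XW8. It was the member in which the breeds did not overlap, as was also so for 12.3% of genes tested with SM above STH. The means were 49.2 ± 3.6 CPM in SM and 33.7 ± 1.88 CPM in STH sheep (SD, n = 3 each), a log2 fold change of 0.54 ± 0.14 (SE). The adjusted p was 0.234 in edgeR's quasi-likelihood test (unadjusted 0.00328), 0.0643 in the likelihood ratio test and 0.0296 in DESeq2. The value in DESeq2 was under the p threshold, which 1.11% of genes were with SM higher, but the fold change was too small for a call.

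*TAP1* was at 29.6, 54.4 and 44.6 CPM in the SM sheep, in the same order, and at 36.1, 25.5 and 22.7 CPM in the STH sheep. SM 128 lay below STH XW3, so that the breeds overlapped, and the other 2 SM sheep lay above all STH sheep. The log2 fold change was 0.61 ± 0.26, with an adjusted p of 0.270 in edgeR's quasi-likelihood test (unadjusted 0.0419).

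*TAPBP* encodes tapasin, which holds the empty class I molecule at the transporter. It was at 95.4, 140 and 128 CPM in the SM sheep and at 93.2, 71.8 and 96.3 CPM in the STH sheep. The overlap was narrow, between SM 128 and STH XW8. The log2 fold change was 0.47 ± 0.19, with an adjusted p of 0.260 in edgeR's quasi-likelihood test (unadjusted 0.0329). *CALR* encodes calreticulin, a chaperone of the endoplasmic reticulum that takes part in loading and also folds many other glycoproteins. It was at 553, 641 and 838 CPM in the SM sheep and at 620, 583 and 646 CPM in the STH sheep. One sheep, SM 30126, stood above the others, and the remaining SM sheep lay within or below the range of the STH sheep. The log2 fold change was 0.14 ± 0.18 (adjusted p = 0.668, edgeR's quasi-likelihood test), and it was -0.03 when SM 30126 was left out.

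*PSMB8*, *PSMB9* and *PSMB10* encode the catalytic subunits of the immunoproteasome, which replace the constitutive subunits encoded by *PSMB5*, *PSMB6* and *PSMB7*. *PSMB8* was at 15.5, 32.5 and 23.6 CPM in the SM sheep and at 19.9, 13.2 and 8.31 CPM in the STH sheep. It had the widest spread of the 10 genes, with 3.91 times as much in SM 30034 as in STH XW8, where *CALR* had the narrowest at 1.52 times. Its log2 fold change of 0.79 ± 0.35 was the largest of the group and had an adjusted p of 0.279 in edgeR's quasi-likelihood test (unadjusted 0.0516). *PSMB10* was at 15.4, 26.0 and 24.4 CPM in the SM sheep and at 18.5, 12.4 and 11.9 CPM in the STH sheep. SM 128 again lay below STH XW3, and the log2 fold change was 0.62 ± 0.25 (adjusted p = 0.265, unadjusted p = 0.0375, edgeR's quasi-likelihood test). *PSMB9* was at 11.4, 20.1 and 22.9 CPM in the SM sheep and at 17.7, 13.8 and 9.37 CPM in the STH sheep. Here SM 128 lay below 2 of the STH sheep, and the log2 fold change was 0.41 ± 0.31 (adjusted p = 0.448, edgeR's quasi-likelihood test).

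The constitutive subunits were also higher in SM sheep by value, with log2 fold changes of 0.48 for *PSMB5*, 0.33 for *PSMB6* and 0.31 for *PSMB7*. With a correction for exon length in each sheep they were smaller, at 0.29, 0.09 and 0.10 in the same order. None of these passed, and none had an unadjusted p under 0.05. The balance between the immune and the constitutive form was therefore read within each sheep as a ratio of RPKM. The ratio of *PSMB8* to *PSMB5* was 24.7%, 46.9% and 21.9% in the SM sheep, against 31.3%, 24.5% and 15.3% in the STH sheep. That of *PSMB9* to *PSMB6* was 3.82%, 5.37% and 4.37% in the SM sheep, against 4.95%, 4.70% and 3.11% in the STH sheep. That of *PSMB10* to *PSMB7* was 14.1%, 16.3% and 12.2% in the SM sheep, against 12.8%, 10.9% and 10.01% in the STH sheep. All 3 ratios overlapped between the breeds and were highest in SM 30034, and all were lowest in STH XW8.

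The same was done for the 2 chains of the transporter and for the heavy and light chain of the class I molecule. The ratio of *TAP1* to *TAP2* was 64.7%, 103% and 89.9% in the SM sheep, against 101%, 79.5% and 67.2% in the STH sheep, which overlapped almost entirely. By exact two-sided permutation tests over the 6 sheep, whose smallest possible p is 0.1, the p of the 5 ratios ranged from 0.2 to 0.9 and the adjusted p over the 5 from 0.833 to 0.9. These 5 ratios were chosen after the counts had been seen.

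**Figure D2:**
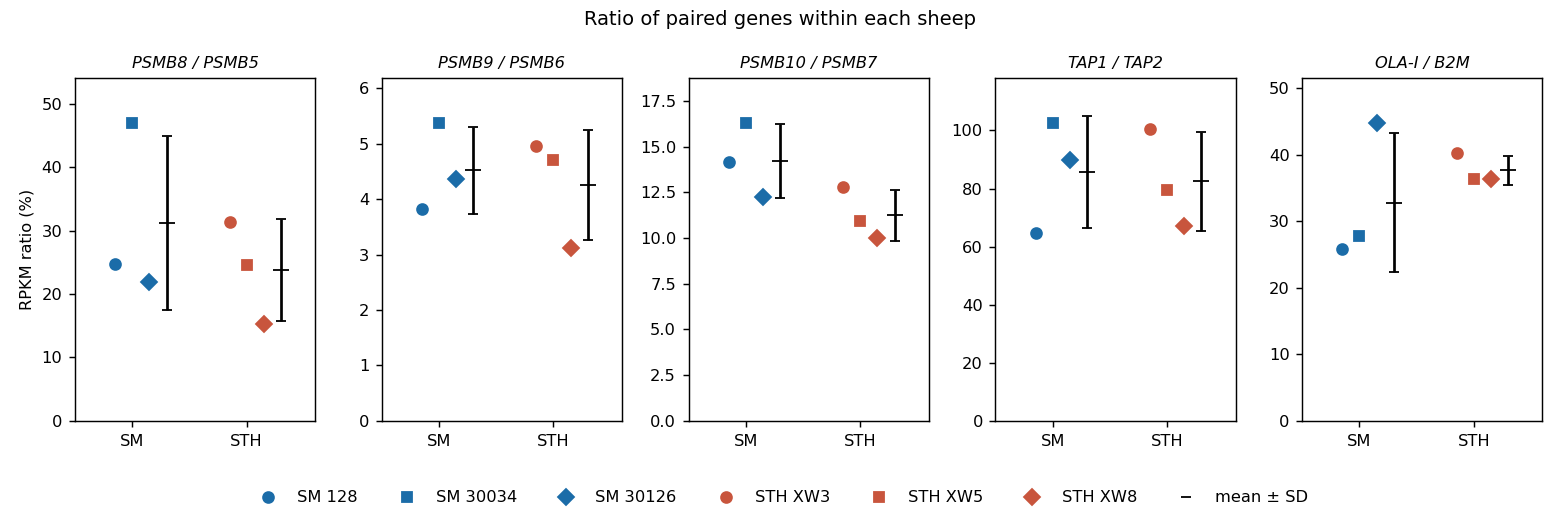
Ratio of the RPKM of paired genes within each sheep, in percent (vertical axes from 0), for the 3 immunoproteasome subunits over their constitutive counterparts, for both chains of the transporter, and for the class I heavy chain over the light chain, with the mean ± SD of each breed in black. The 3 SM (blue) and 3 STH (red) sheep overlap in every panel, and SM 30034 has the highest *PSMB8* to *PSMB5* ratio at 46.9%.

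*ERAP1* encodes an aminopeptidase that trims peptides in the endoplasmic reticulum to the length a class I molecule can hold. It was at 38.2, 50.0 and 48.9 CPM in the SM sheep and at 43.7, 38.8 and 32.7 CPM in the STH sheep. SM 128 fell within the range of the STH sheep, and the log2 fold change was 0.25 ± 0.17 (adjusted p = 0.410, edgeR's quasi-likelihood test).

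*B2M* encodes beta-2 microglobulin, the light chain that every class I molecule needs to reach the cell surface. It was at 834, 1355 and 984 CPM in the SM sheep and at 1087, 922 and 737 CPM in the STH sheep. SM 30034 stood alone above the rest, and the other sheep of both breeds were mixed. The log2 fold change was 0.21 ± 0.22 (adjusted p = 0.592, edgeR's quasi-likelihood test), and it was -0.02 without SM 30034. The heavy chain was read from the row named *OLA-I*, whose value is uncertain because reads can be shared among near-identical class I copies. *OLA-I* was at 234, 411 and 479 CPM in the SM sheep and at 475, 365 and 292 CPM in the STH sheep, a log2 fold change of -0.01 ± 0.28. Its RPKM as a share of that of *B2M* was 25.8%, 27.8% and 44.7% in the SM sheep, against 40.2%, 36.4% and 36.4% in the STH sheep.

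*NLRC5* encodes the transactivator of class I genes, which acts at promoters of heavy chains, *B2M*, *TAP1* and *PSMB9*. It was the lowest of the 10 genes per length, at 9.49, 17.1 and 14.0 CPM in the SM sheep and at 13.5, 9.81 and 12.1 CPM in the STH sheep. SM 128 was the lowest and SM 30034 the highest of all 6 sheep, so the SM sheep spanned the STH sheep. The log2 fold change was 0.20 ± 0.24 (adjusted p = 0.639, edgeR's quasi-likelihood test), and it was -0.02 without SM 30034.

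**Figure D3:**
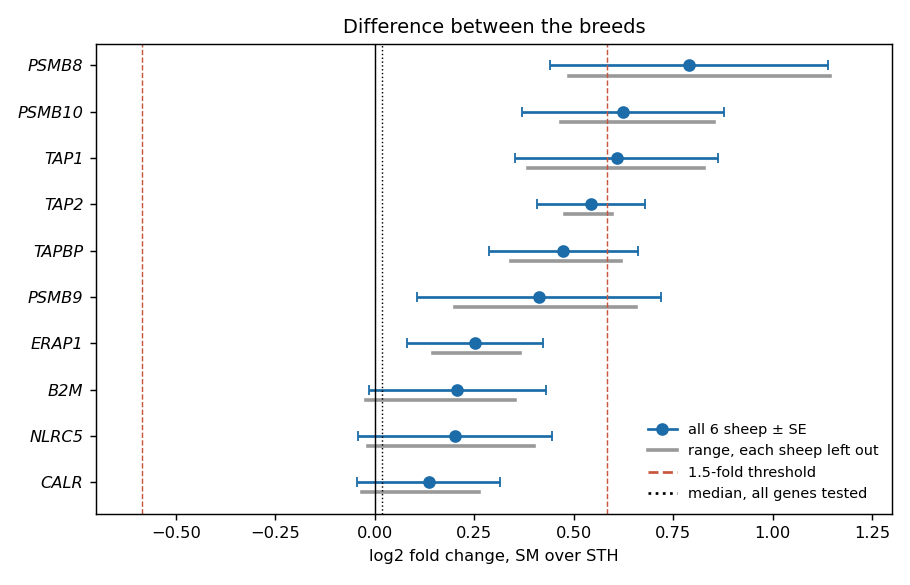
Log2 fold change, SM over STH, of each gene with its standard error (blue) and the range when each sheep was left out in turn (grey), beside the 1.5-fold thresholds (red dashes) and the median of all genes tested (dots). All 10 points lie above 0, and the grey ranges of *B2M*, *NLRC5* and *CALR* reach below it.

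The members also varied together from sheep to sheep. SM 128 was the lowest SM sheep in 10 of 10 members, whereas it was the lowest SM sheep in 37.6% of all genes tested. SM 30034 was the highest of all 6 sheep in 8 members, as in 10% of all genes tested, and SM 30126 in the other 2 (*PSMB9* and *CALR*). Among STH sheep XW3 was the highest in 8 members, and XW8 was the lowest of all sheep in 6. The median deviation of the 10 genes from their own mean over the sheep was -0.18, 0.46 and 0.36 on the log2 scale in SM 128, 30034 and 30126, and 0.10, -0.34 and -0.37 in STH XW3, XW5 and XW8. For the group as a whole, STH XW3 was thus above SM 128. By the study's mapping statistics, introns held a larger share of unique fragments in SM 128, STH XW5 and STH XW8 than in the others. These are also the sheep with a negative median deviation, and a link between the share and the members' levels was not tested.

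**Figure D4:**
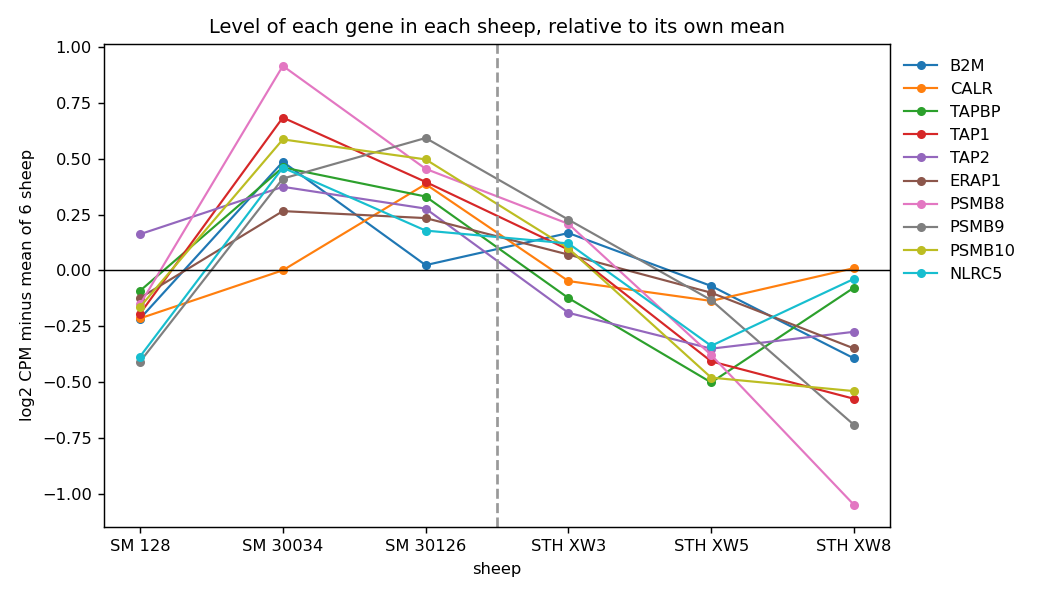
Log2 CPM of each of the 10 genes minus its mean over the 6 sheep (vertical axis), by sheep (horizontal axis), with 1 line per gene and the breeds parted by a dashed line. Every line is lower at SM 128 than at SM 30034 and SM 30126, and *PSMB8* spans the widest range and *CALR* the narrowest.

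Each sheep was also left out in turn. As SM 128 was the lowest SM sheep in every member, leaving it out raises the SM level of all 10 by construction, and as SM 30034 was the highest in 8, leaving it out lowers that of most, so neither reading is support for a direction. Without SM 128, which leaves 2 SM sheep, *TAP2* passed both thresholds, with a log2 fold change of 0.60 ± 0.15 and an adjusted p of 0.0470 in edgeR's quasi-likelihood test, where 1.34% of all genes passed with SM and 6.39% with STH higher. *TAP1* at 0.82 (adjusted p = 0.0526), *PSMB10* at 0.82 (0.0560), *TAPBP* at 0.62 (0.0573) and *PSMB8* at 1.02 (0.0784) remained above the p threshold in the same edgeR quasi-likelihood test. The median of the members was then 0.61. Without SM 30034 it was 0.33, 8 members were higher in SM sheep, beside 50.1% of all genes, and 1 had an unadjusted p under 0.05, beside 4.57% of genes higher in SM sheep.

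Over the 6 sheep, the level of *TAP1* was followed most closely among the members by *PSMB10* (Pearson r of log2 CPM 0.99), *PSMB8* (0.97) and *ERAP1* (0.96). These 3 of 9 members had an r over 0.9, as had 1.57% of all 15319 genes ranked, and the values describe 6 libraries that share 2 breeds. *PSMB9*, which lies beside *TAP1*, was at 0.89, *B2M* at 0.88, *TAPBP* at 0.84, *TAP2* at 0.83 and *NLRC5* at 0.81. *CALR* was the least like it at 0.48. The 10 genes outside the group with the highest r, from 0.975 to 0.996, were *OLFML2A*, *SEMA3G*, *ELMO1*, *LOC106990802*, *DTL*, *LOC106991452*, *PSME2*, *TGIF2*, *LUZP1* and *FOXD2*. Of these *PSME2*, at 0.981, encodes a subunit of the proteasome activator that is known to be raised by interferon gamma.

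The rest of the pathway was read from lists of genes, in none of which any gene passed in the quasi-likelihood test. Among 11 other subunits of the proteasome core 6 were higher in SM sheep by value, with a median log2 fold change of 0.13. *PSMB2* at 0.47 and *PSMB3* at 0.45 had an unadjusted p under 0.05 (0.0498 and 0.0429, with an adjusted p of 0.277 and 0.270 in edgeR's quasi-likelihood test), and the most abundant, *PSMB1*, was at 0.18. With a correction for exon length in each sheep the median of this list was -0.07, *PSMB2* was at 0.23 and *PSMB3* at 0.20. Among 8 proteasome activators and assembly factors 6 were higher in SM sheep, with a median of 0.19 and none at an unadjusted p under 0.05. *PSME1* and *PSME2*, the activator that binds the immunoproteasome, were at 0.40 and 0.38, and *PSME3* was at 0.25. The median of the activators and assembly factors was 0.01 with that correction. DESeq2 called 0 genes in each of these lists, beside 156 genes higher in SM and 283 in STH sheep of all 15320 tested.

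Of 11 other genes of peptide loading and trimming, 4 were higher in SM and 7 in STH sheep, and the median was -0.12. *TAPBPL*, a relative of tapasin that edits peptides, was at 0.37 and did not overlap between the breeds (adjusted p = 0.270, unadjusted p = 0.0431, edgeR's quasi-likelihood test). *LNPEP*, an aminopeptidase of endosomes, was at -0.53 and lay higher in every STH sheep (adjusted p = 0.255, unadjusted p = 0.0238, edgeR's quasi-likelihood test). *PDIA3* and *CANX*, which fold glycoproteins and take part in loading, were at -0.03 and -0.16. Among 12 chaperones of the endoplasmic reticulum, the wider group to which *CALR* belongs, 5 were higher in SM and 7 in STH sheep, with a median of -0.02. Their summed level was 3199 to 3643 CPM in SM and 3657 to 3834 CPM in STH sheep, with no overlap. This list holds *CALR* itself and shares genes with the loading list, *PDIA3* and *CANX* among them. *HSP90B1* at -0.45 and *DNAJC3* at -0.40 had an unadjusted p under 0.05, and *SDF2L1* had the largest difference at 0.56. DESeq2 called 0 genes of these lists as well, beside the same 156 and 283 of all 15320 genes.

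Of 25 regulators of class I genes 13 were higher in SM and 12 in STH sheep, with a median of 0.01. DESeq2 called 0 of them, beside 156 genes higher in SM and 283 in STH sheep of all 15320 tested. The breeds did not overlap in 4 with SM above STH and in 4 with STH above SM, beside 12.3% and 13.3% of all genes tested. *IRF7* at 0.86 and *IRF9* at 0.54, transcription factors of the interferon response, were higher in every SM sheep, with an adjusted p of 0.247 and 0.248 in edgeR's quasi-likelihood test (unadjusted 0.0156 and 0.0173). *JAK2* at -0.95, a kinase of cytokine receptors, and *CREB1* at -0.95 and *NFYB* at -0.55, transcription factors that bind class I promoters, were higher in every STH sheep. Their adjusted p was 0.247, 0.247 and 0.259 in edgeR's quasi-likelihood test, and *JAK2* (0.0176) and *CREB1* (0.0282) passed when SM 128 was left out. The study listed *CREB1* among its genes higher in STH sheep. *IRF1* at 0.35, *CIITA* at 0.20 and *JAK1* at -0.06 overlapped between the breeds.

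**Figure D5:**
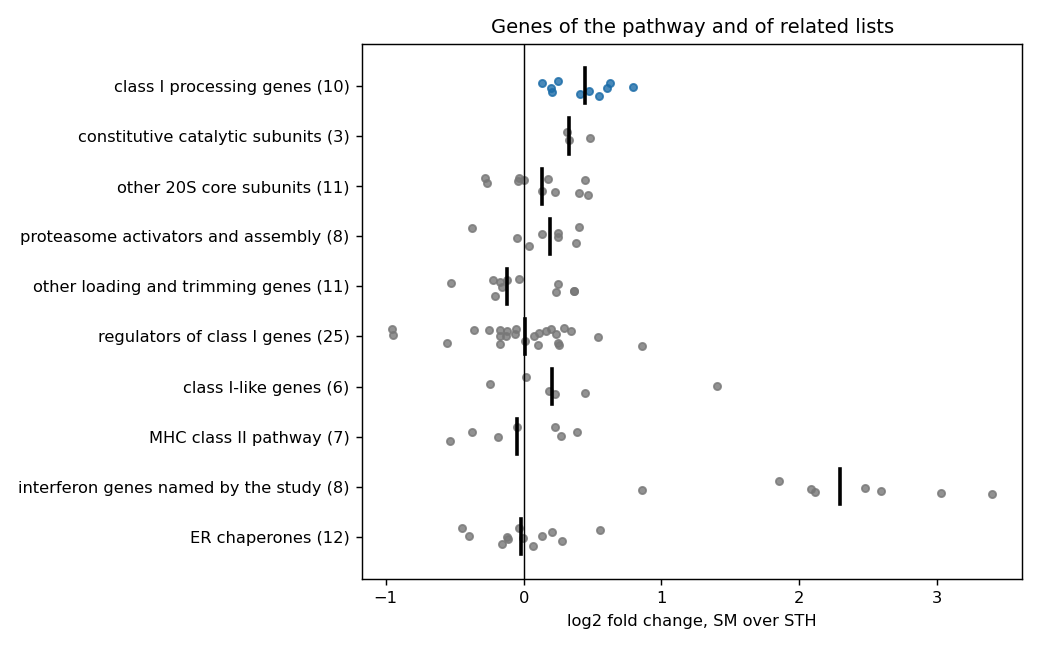
Log2 fold change, SM over STH (horizontal axis), of every gene tested in each list, with 1 point per gene, the number tested in brackets and a black bar at the median (vertical positions within a row are arbitrary). The class I processing genes (blue) lie between 0.14 and 0.79, the loading and trimming genes and the regulators lie on both sides of 0, and the 8 interferon genes taken from those the study names lie from 0.86 to 3.40.

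Class I-like genes and the class II pathway were read in the same way. Of 6 class I-like genes 5 were higher in SM sheep, with a median of 0.21. *AZGP1*, a secreted class I-like glycoprotein, was at 1.40 ± 0.32 with an adjusted p of 0.209 in edgeR's quasi-likelihood test and of 0.00492 in DESeq2, which called it. The study also called *AZGP1* as higher in SM sheep. *FCGRT*, the heavy chain of the neonatal Fc receptor, which also pairs with beta-2 microglobulin, was at 0.45 (adjusted p = 0.260, edgeR's quasi-likelihood test). Of 22 names listed for the class II pathway, some of them alternative symbols, 7 were in the files. Of these genes 3 were higher in SM and 4 in STH sheep, with a median of -0.05. None had an unadjusted p under 0.05 in edgeR's quasi-likelihood test, and DESeq2 called 0. Their summed level was 809, 1572 and 1244 CPM in SM 128, 30034 and 30126. It was 1191, 844 and 988 CPM in STH XW3, XW5 and XW8, so SM 128 was the lowest and SM 30034 the highest of all 6, as in *NLRC5*. *CD74*, the invariant chain, was at 0.39 and *CTSS*, the protease that degrades it, at -0.53.

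Of the interferon-induced genes that the study named from these same libraries, 8 were taken (*IFITM3*, *OAS1*, *OAS2*, *MX1*, *MX2*, *IFI6*, *ISG15* and *RSAD2*), with a median log2 fold change of 2.30. DESeq2 called all 8 and the quasi-likelihood test 0, but they were chosen for being higher in SM sheep, so their direction is no independent evidence. Their summed level was 301, 618 and 366 CPM in SM 128, 30034 and 30126 and 131 to 203 CPM in STH sheep, so that SM 30034 was the highest in this list as in 8 of the 10 members, and SM 128 was again the lowest SM sheep.

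Markers of immune cells were set beside the members. The summed level of 5 markers of all leukocytes was 243 CPM in SM 128, 386 CPM in SM 30034 and 274 CPM in SM 30126, and 251 to 330 CPM in STH sheep. For 9 T cell markers the sum was 38.5 to 55.9 CPM in SM and 28.2 to 42.5 CPM in STH sheep, and for 10 markers of macrophages and dendritic cells it was 208 to 267 and 203 to 230 CPM. In each of these lists SM 128 was the lowest SM sheep and SM 30034 the highest of all 6. It was otherwise for NK cell, B cell and mast cell markers, where an STH sheep was the highest of all 6. For mast cell and fibroblast markers SM 128 was the highest SM sheep. Of the T cell markers 7 were higher in SM and 2 in STH sheep by value, with a median log2 fold change of 0.55. In edgeR's quasi-likelihood test 2 of them had an unadjusted p under 0.05, beside 7.21% of all genes higher in SM sheep. The median was 0.06 for the leukocyte markers and -0.01 for those of macrophages and dendritic cells. The sum of 4 NK cell markers, of 7 listed, was 8.99 to 15.8 CPM in SM and 16.2 to 22.3 CPM in STH sheep. Of the 3 of them tested, 1 was higher in SM and 2 in STH sheep by value. *GNLY* had the highest level and the largest log2 fold change of this list, at -1.08. The sum of 6 B cell markers was 7.01 to 17.9 CPM in SM and 12.1 to 19.3 CPM in STH sheep. That of 5 mast cell markers was 11.01 to 18.8 and 15.6 to 33.5 CPM. All 5 were higher in STH sheep by value, with a median log2 fold change of -0.66. In edgeR's quasi-likelihood test 1 of them had an unadjusted p under 0.05, beside 10.8% of all genes higher in STH sheep. The sum of 5 endothelial markers was 519, 661 and 641 CPM in SM 128, 30034 and 30126 and 542, 422 and 329 CPM in STH XW3, XW5 and XW8. SM 128 was the lowest SM sheep and SM 30034 the highest of all 6 in this list too, and all 5 markers were higher in SM sheep by value (median log2 fold change 0.40, 2 at an unadjusted p under 0.05). Of all genes tested 51.4% were higher in SM sheep by value and 7.21% at that level. The breeds did not overlap in 1 of the 5, with SM above STH, as in 12.3% of all genes tested. The sum of 5 smooth muscle markers was 1039 to 1249 CPM in SM and 1653 to 2111 CPM in STH sheep. All 5 were higher in STH sheep by value (median log2 fold change -0.65). In edgeR's quasi-likelihood test 4 of them had an unadjusted p under 0.05, and DESeq2 called 3. All 6 keratinocyte markers were also higher in STH sheep by value (median -0.54), with 3 at that level and 2 called by DESeq2. Over all 15320 genes DESeq2 called 283 higher in STH sheep. No marker was at 0 in every sheep, and the part of these cells in the members' values was not tested.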

How the data were processed

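Libraries of skin RNA from 6 ewes, 3 per breed, were grouped by the breed given in the labels. The authors mapped reads with CLC Genomics Workbench to the Oar_v4.0 genome. They deposited, per gene and sheep, a total count without normalization, which was used for all tests. The deposited RPKM values are proportional to the counts over exon length and were used for levels between genes and for ratios. The deposited TPM values, and a score the authors call CPM, were not used. Floors cover counting error only, whereas SDs and standard errors include the spread between sheep.

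A gene was kept when 3 or more sheep had 10 or more counts. Counts were normalized by TMM in edgeR 4.0.16 (R 4.3.3) and compared by its quasi-likelihood test with breed as the only term, tested on simulated data beforehand. Benjamini-Hochberg adjustment ran over all 15320 genes, and a call needed an adjusted p under 0.05 with a difference of over 1.5-fold. Correlations used log2 CPM with a prior count of 2.

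The members and lists were chosen with earlier results of these data known. Text names all members, a set of partner genes and, in each list of the pathway, genes with an unadjusted p under 0.05, the largest difference or the highest level. *OLA-I* was taken by its symbol in the files. The RefSeq gene table (ARS-UI_Ramb_v3.0) matched 21630 of 28394 identifiers and all 10 members, 9 under the same symbol, and *B2M* as *LOC443295*. Coordinates are those of the files. Alternatives were DESeq2 1.42.0, edgeR's likelihood ratio test, limma-voom (limma 3.58.1), the newer dispersion estimate, RLE and upper quartile scaling, no count filter, at least 1 CPM in 3 sheep, a loess correction per sheep for exon length (span 0.5), limma on log2(RPKM + 0.1) and log2(RPKM + 1), and each sheep left out. Leaving sheep out of the ratios was chosen after seeing the data. Promoter and protein sequences were not used here, and 1 gene of the naming rule is not reported here.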

Additional observations from a re-analysis of the deposited data

How the results depend on the processing

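The number of members past both thresholds, 0, was unchanged in the alternatives that kept all 6 sheep and was 0 to 1 when a sheep was left out, the 1 being *TAP2* without SM 128. Their median log2 fold change of 0.44 was 0.43 with the length trend removed and 0.33 to 0.61 with a sheep left out. The number of genes past both thresholds, 0, was 439 by DESeq2 (156 higher in SM, 283 in STH sheep), 352 by the likelihood ratio test (133 and 219), 2 with the newer dispersion estimate, 2 without a count filter, 2 with the length trend removed, 11 by limma on log2(RPKM + 0.1) and 0 to 1175 with a sheep left out, the highest without SM 128 (203 and 972). The cause was not tested.

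Some log2 fold changes turned direction when a sheep was left out. *B2M* ranged from -0.022 (without SM 30034) to 0.35, *NLRC5* from -0.016 (without SM 30034) to 0.40 and *CALR* from -0.033 (without SM 30126) to 0.26. Among other genes, *CIITA* ranged from -0.049 (without SM 30034) to 0.48, *PDIA3* from -0.079 to 0.048 (without STH XW3; 0.024 without SM 128) and *JAK1* from -0.14 to 0.024 (without SM 128). The log2 ratio of *PSMB9* to *PSMB6* ranged from -0.11 (without STH XW8; -0.030 without SM 30034) to 0.23, and that of *TAP1* to *TAP2* from -0.093 (without SM 30034; -0.088 without STH XW8) to 0.24. These alternatives for non-members and ratios were added after seeing the data. With the length trend removed *PSMB1* was -0.042 and *JAK1* 0.048, and *B2M* was 0.02, *CALR* 0.03, *NLRC5* 0.43 and *PSMB8* 0.57. *PDIA3* was 0.012 and 0.011 by limma on log2(RPKM + 0.1) and log2(RPKM + 1). No paired analysis was possible because the sheep of the breeds are separate animals and their labels share no number.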
